A study of Mus musculus with 2 samples.

Results

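The 10 genes described here encode parts of the translation machinery, a growth-associated protein (Tpt1) or an RNA without a protein product (Gas5). All are known to begin their messages with a 5′ terminal oligopyrimidine (TOP) stretch. They are Eef1a1, Eef1b2, Eef1d, Eef1g, Eef2, Eif3e, Eif3f, Pabpc1, Tpt1 and Gas5, a list of TOP genes that encode no ribosomal protein. All 10 were found once among the 45706 gene identifiers of the files, and all 10 passed the filter on low values, as did 12026 genes in all. RNA was sequenced from intestinal stem cells of high green fluorescence, sorted from Lgr5-EGFP-IRES-creERT2 mice at an age of 4 months. In these mice the Lgr5 locus drives both the fluorescent protein and a tamoxifen-inducible Cre, so both groups carry the same modified allele and the gate follows the activity of that locus. 1 library came from mice fed standard chow without restriction and 1 from fasted mice. The sources used here give neither how long the fast was nor how many mice went into a library.

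A TOP message starts at its cap with a cytidine that is followed by an unbroken run of pyrimidines. The kinase complex mTORC1, which is active when nutrients are plentiful, favours the translation of these messages. When it is inactive, the protein LARP1 holds TOP messages by their cap and first bases, which keeps them out of translation and protects them from decay. Counts of RNA, as measured here, give the amount of each message and not its translation.

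Promoter sequences were taken from a promoter table of RefSeq starts (GRCm38.p6). This table held an entry for 6 of the 10 genes: Eef1a1, Eef1b2, Eef2, Eif3f, Tpt1 and Gas5. No entry was found for Eef1d, Eef1g, Eif3e and Pabpc1. The windows span 30 bases, of which 5 lie before the annotated start, and capitals mark the longest run that begins with C and continues with at least 4 bases that are C or T. They are shown because this run is the feature by which the genes were grouped. Rack1 and Rps6, a ribosomal scaffold gene and a ribosomal protein gene of the same class, are given for comparison.
Eif3f (chr7:108934410-108934439, plus strand): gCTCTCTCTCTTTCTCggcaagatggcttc
Gas5, downstream start (chr1:161035161-161035190, plus strand): tcagCCTTTCggagctgtgcggcattctga
Eef1a1 (chr9:78481700-78481729, minus strand): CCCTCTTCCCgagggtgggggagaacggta
Eef2 (chr10:81176626-81176655, plus strand): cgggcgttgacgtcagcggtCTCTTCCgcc
Rack1 (chr11:48800355-48800384, plus strand): tCTTTCTTTTTCTCCacagggtcgtggtgg
Rps6 (chr4:86857343-86857372, minus strand): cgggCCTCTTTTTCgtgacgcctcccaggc

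The annotated first base was a C followed by at least 4 bases that are C or T, read on the strand of the transcript only, in 2 of the 6 genes, Eif3f and Gas5, against 813 of 27025 genes in the promoter table (3.01%) and 14 of 61 cytosolic ribosomal protein genes (23%). When the run could begin anywhere from 10 bases before to 10 bases after the start, 3 of the 6 held it, with Eef1a1 added, against 34.4% of all genes and 60.7% of the ribosomal protein genes. In Eef2 a run of 7 bases began at base 16 after the annotated start, a position chosen after the sequence was seen. Windows of the same size around the starts of Eef1b2, Tpt1 and the upstream start of Gas5 held no such run. Annotated starts need not be the starts used in these cells: GENCODE release M21 places the first base of Tpt1 at 75845093 on chromosome 14, while RefSeq places it at 75845256.

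Every one of the 10 genes had a fasted over fed ratio above 1, as did 47.9% of all measured genes, and every ratio was below 1.5-fold. Ratios ran from 1.06-fold for Pabpc1 to 1.46-fold for Gas5, with a median of 1.32-fold (log2 ratio 0.40). The median over all measured genes was -0.02 on the same scale. Counts were first divided by 1 size factor per library (scaled counts), and the 95% interval given with each log2 ratio covers counting error only. With 1 library in each group there is no replicate check and no test, so each ratio compares these 2 libraries and not the conditions.

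The fed library held 6985316 counts and the fasted library 5020056. Levels are also given as counts per 1000000 (CPM), on which a single count is worth 0.143 (fed library) or 0.199 (fasted library). To be called higher or lower, a gene had to differ by 2-fold or more and its interval had to leave out 1. None of the 10 genes met this, where 2.51% of measured genes were called higher and 1.91% lower. The interval lay wholly above 1 for all 10, against 16.7% of measured genes, and below 1 for none, against 19.2%. The former share rises with abundance: among the 2223 genes at least as abundant as Eef1g, the least abundant of the 10, it was 29%, a subset chosen after the values were seen, in which 48.3% of genes had a ratio above 1. A fasted level at least 25% above the fed level, with an interval above 1, was found for 6 of the 10, against 10.5% of measured genes and 10.7% of the 2223. At 1.5-fold it was none of the 10, against 5.11% of measured genes. The log2 ratios of those 2223 genes had a robust SD of 0.23 around a median of -0.01, a spread that includes any variation between mice.

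**Figure D1:**
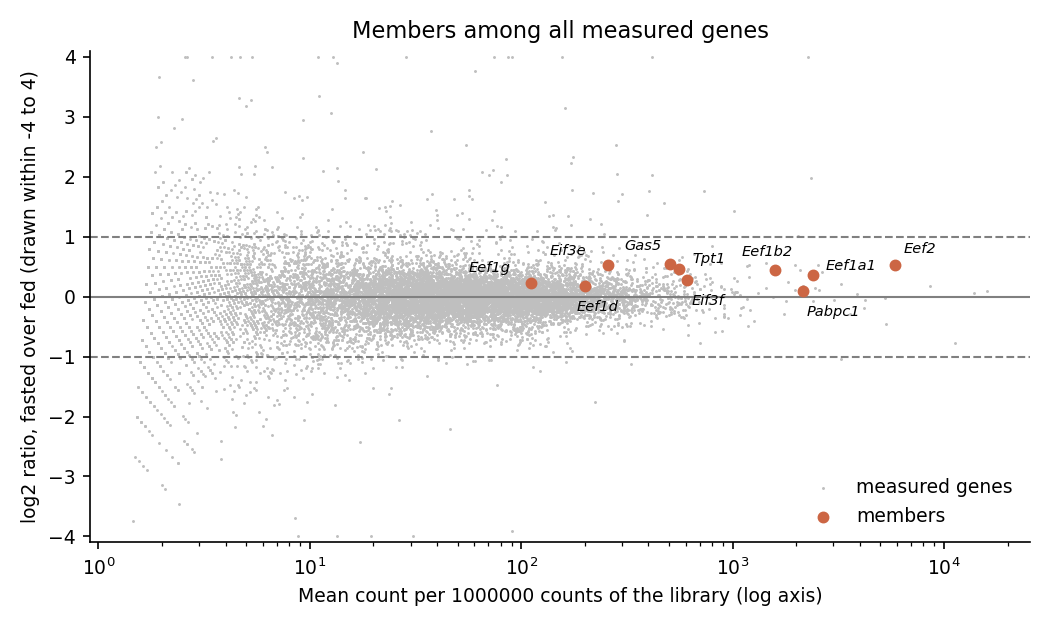
Each grey point is a measured gene, with its mean CPM on a log axis and its log2 ratio of fasted over fed; dashed lines mark 2-fold. The 10 members, in orange, all lie between 0 and the upper dashed line, at mean abundances from 111 CPM upward.

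The elongation factor eEF1A, encoded by Eef1a1, brings aminoacyl-tRNA to the ribosome. Eef1a1 (ENSMUSG00000037742, chromosome 9, 78478449 to 78489151, minus strand, GRCm38) was counted 14834 times in the fed library and 13543 times in the fasted one, or 12483 and 16093 scaled counts. The fasted level was 1.29-fold the fed level, a log2 ratio of 0.37 (0.33 to 0.40). Its tissue-restricted relative Eef1a2 had 0 counts in both libraries, which allows up to 0.429 CPM (fed) and 0.598 CPM (fasted), or 3 counts.

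The exchange complex eEF1B reloads eEF1A with GTP, and its 3 subunits had unequal ratios. Eef1b2 (ENSMUSG00000025967, chromosome 1, 63176825 to 63180486, plus strand), the catalytic alpha subunit, had 7975 fed and 10785 fasted scaled counts, with a log2 ratio of 0.44 (0.39 to 0.48). Eef1g (ENSMUSG00000071644, chromosome 19, 8967041 to 8978479, plus strand), the structural gamma subunit, had 605 and 712, with a log2 ratio of 0.23 (0.08 to 0.39). Eef1d (ENSMUSG00000055762, chromosome 15, 75894205 to 75909556, minus strand), the delta subunit and a further exchange factor, had 1120 and 1263, with a log2 ratio of 0.17 (0.06 to 0.29). The interval of Eef1b2 lay above those of both other subunits, which overlapped each other. After the correction for exon length described below, Eef1b2 (0.282 to 0.365) overlapped Eef1d (0.088 to 0.323) and still lay above Eef1g (-0.040 to 0.277). Eef1d overlaps Naprt on its own strand (594 and 543 counts), and Eef1b2 overlaps Ndufs1 on the opposite strand, so the assignment of reads from the shared stretches is uncertain.

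Eef2 (ENSMUSG00000034994, chromosome 10, 81176631 to 81182498, plus strand) encodes the factor that moves the ribosome along the message codon by codon. It was the most abundant of the 10 and the gene of rank 5 among all genes by mean CPM, with 33974 fed and 34604 fasted counts. Scaled, these were 28590.1 and 41120.4, a log2 ratio of 0.52 (0.50 to 0.55), the narrowest interval of the 10. Of the counts of the 10 genes, Eef2 alone made up 39.2% when fed and 42.7% when fasted. Eef2k, whose kinase inhibits eEF2, had a log2 ratio of -0.04 (-0.25 to 0.16). Of 13 further measured elongation and release factor genes, 9 had a ratio above 1 and none was called, with a median of 0.09. Among them Eif5a, which helps ribosomes past difficult peptide bonds, had 0.17 (0.10 to 0.24). The highest were Eef1e1, whose product is a scaffold of tRNA synthetases, at 0.39 (0.12 to 0.65) and Eef1akmt1, a methyltransferase gene, at 0.29 (-0.13 to 0.71), and the lowest were Gspt2 at -0.62 (-1.74 to 0.42) and Gtpbp2, a ribosome rescue factor, at -0.55 (-0.75 to -0.35).

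**Figure D2:**
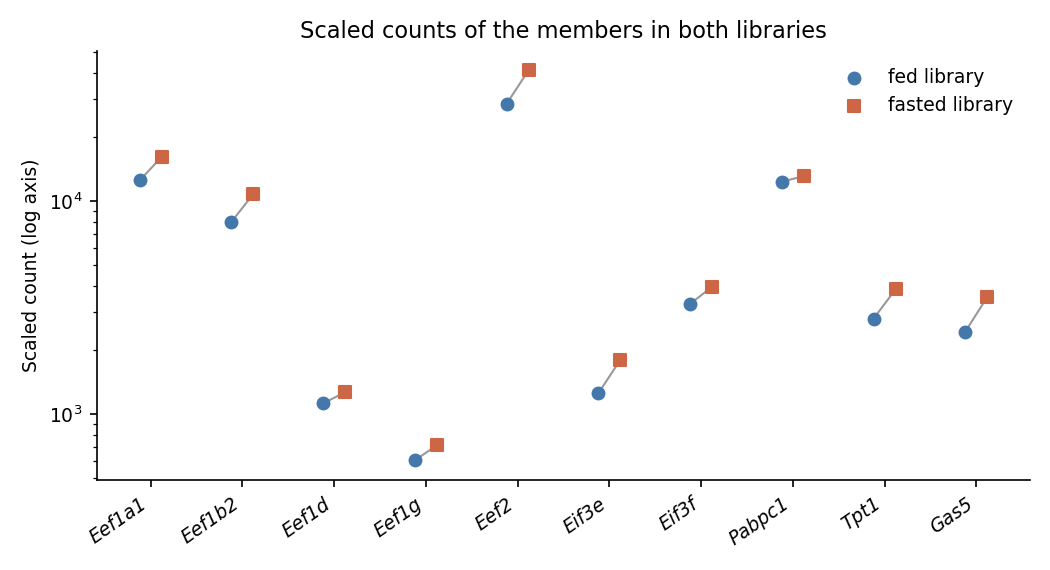
Scaled counts of the 10 members in the fed library (circles) and the fasted library (squares) on a log axis, joined by gene. The fasted value is above the fed value for each gene, least so for Pabpc1 (12330.1 and 13079), and Eef2 stands highest at 28590.1 and 41120.4.

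Eif3e and Eif3f encode subunits of initiation factor 3 (eIF3), the large complex that brings the small ribosomal subunit to the message. Eif3e (ENSMUSG00000022336, chromosome 15, 43250058 to 43282719, minus strand) had 1248 scaled counts fed and 1797 fasted, with a log2 ratio of 0.53 (0.42 to 0.63). Eif3f (ENSMUSG00000031029, chromosome 7, 108934417 to 108942951, plus strand) had 3284 and 3956, with a log2 ratio of 0.27 (0.20 to 0.34). The interval of Eif3e lay wholly above that of Eif3f.

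The other subunits of the complex placed these values. Of 11 further measured eIF3 genes, 10 had a ratio above 1, 8 had an interval above 1 and none was called, with a median of 0.25. Eif3h, also known as a TOP gene, had 0.25 (0.16 to 0.35). Eif3i and Eif3k, which are not on the list of TOP genes used here, had 0.38 (0.28 to 0.48) and 0.37 (0.26 to 0.48), and both intervals overlapped that of Eif3f. The core scaffold gene Eif3a had -0.08 (-0.15 to -0.01) and Eif3d, a cap-binding subunit, 0.04 (-0.11 to 0.19). Eif3j1 had the highest ratio, 0.54, but from 34 and 35 counts, with an interval of -0.18 to 1.26 that included no difference. Listed TOP genes and other genes of the complex overlapped in their ratios. After correction for exon length, with a running median over genes of like length, the median of the 11 genes was 0.10 and 5 intervals lay above 1, and Eif3a turned to 0.01 (-0.06 to 0.08).

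**Figure D3:**
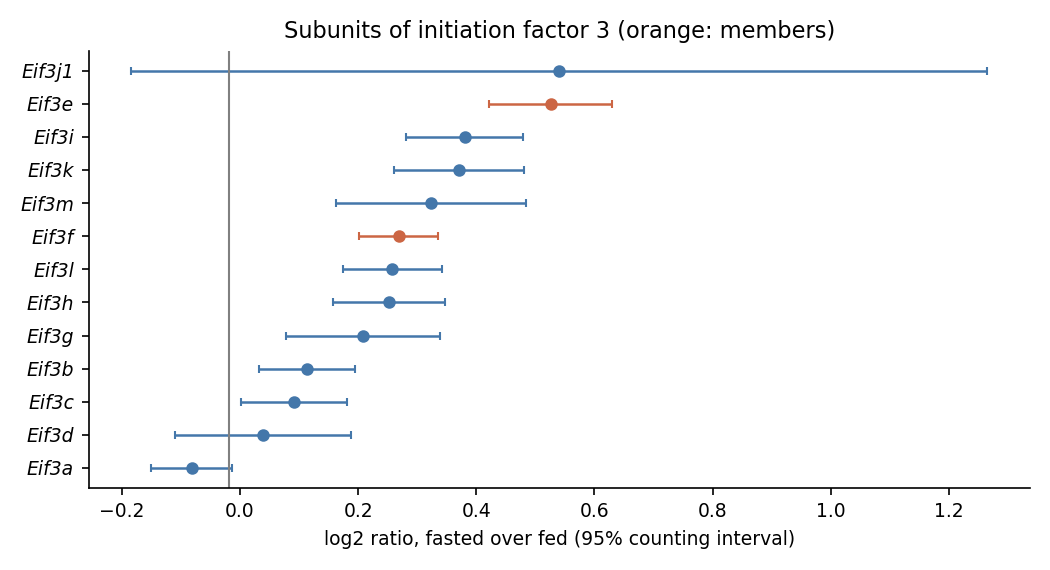
Log2 ratio of fasted over fed for the 13 measured eIF3 subunit genes with 95% counting intervals; the 2 members are orange and the vertical line is the median of all measured genes. Eif3e lies at 0.53 and Eif3f at 0.27, with Eif3a lowest at -0.08.

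Initiation factors outside eIF3 lay nearer to no difference. Of 25 measured genes, 18 had a ratio above 1, 4 had an interval above 1, 2 had one below 1 and none was called, with a median of 0.04. Eif4b, a cofactor of the eIF4A helicase and itself a TOP gene, had 0.26 (0.21 to 0.31). The helicase genes Eif4a1 and Eif4a2 had 0.12 (-0.05 to 0.28) and 0.03 (-0.06 to 0.11), and the scaffold gene Eif4g1 had 0.02 (-0.04 to 0.08). The highest ratios were those of Eif6, 0.30 (0.17 to 0.43), and Eif2a, 0.29 (0.18 to 0.40), and the lowest those of Eif4g3, -0.24 (-0.44 to -0.03), and Eif1ax, -0.12 (-0.24 to -0.01).

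Pabpc1 (ENSMUSG00000022283, chromosome 15, 36595661 to 36609668, minus strand) encodes the cytoplasmic poly(A)-binding protein, which coats the tail of messages and joins it to the cap through eIF4G. It had 14652 fed and 11006 fasted counts, or 12330.1 and 13079 scaled counts. Its log2 ratio of 0.09 (0.05 to 0.12) was the lowest of the 10, and 36.7% of all measured genes had a higher one. At this count depth the interval still excluded a ratio of 1. Of 7 measured relatives and binding partners, 3 had a ratio above 1 and none was called, with a median of -0.03. The relative Pabpc4 had 0.20 (0.00028 to 0.40). The partner genes Paip1, a stimulator, and Paip2b, an inhibitor of the protein, had -0.14 (-0.28 to 0.0099) and -0.29 (-0.52 to -0.06), and Larp4b had 0.09 (-0.03 to 0.20).

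Tpt1 (ENSMUSG00000060126, chromosome 14, 75845093 to 75848525, plus strand) encodes the translationally controlled tumour protein, a growth-associated protein whose message is a classical TOP message. It had 2801 scaled counts fed and 3850.1 fasted, with a log2 ratio of 0.46 (0.39 to 0.53). Gas5 (ENSMUSG00000053332, chromosome 1, 161034422 to 161038539, plus strand) is a spliced RNA without a protein product that carries small nucleolar RNAs (snoRNAs) in its introns and is known to build up when growth stops, since its decay depends on translation. It had 2436 scaled counts fed and 3545 fasted, with a log2 ratio of 0.54 (0.47 to 0.62), the highest of the 10. Of all measured genes, 7.96% had a higher ratio than Gas5.

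Among the other snoRNA host genes, 8 of 11 were found by symbol and 7 were measured. Of these 6 had a ratio above 1, 5 had an interval above 1 and none was called, with a median of 0.36. Snhg12 and Snhg8 had 0.55 (0.29 to 0.82) and 0.54 (0.30 to 0.79), close to Gas5, while Snhg17 had 0.09 (-0.09 to 0.28) and Snhg15 -0.02 (-0.41 to 0.36). After correction for exon length the median of these host genes was 0.16 and 3 intervals lay above 1, while Gas5 had 0.53. The annotation places snoRNA genes inside 4 of the 10 members on the same strand (Eef1b2, Eef2, Tpt1 and Gas5), against 238 of 12026 measured genes (1.98%). These 4 had log2 ratios of 0.44 to 0.54, and the other 6 had 0.09 to 0.53, so the ranges overlapped. All 238 such genes had a median of 0.03. The snoRNA genes annotated within Gas5 had no count in either library. Zbtb37 overlaps Gas5 on the opposite strand and had 298 and 169 counts.

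**Figure D4:**
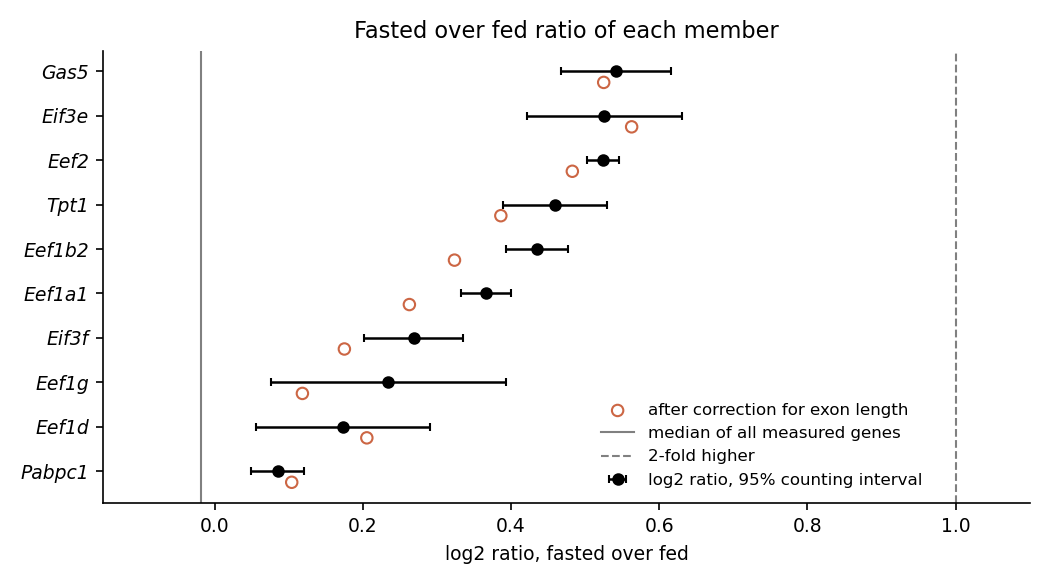
Log2 ratio of fasted over fed for each member with its 95% counting interval (black) and after correction for exon length (open circles); the solid line is the median of all measured genes and the dashed line is 2-fold. Values run from 0.09 for Pabpc1 to 0.54 for Gas5, all short of the dashed line.

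In order of log2 ratio the 10 genes ran from Pabpc1 over Eef1d, Eef1g, Eif3f, Eef1a1, Eef1b2, Tpt1, Eef2 and Eif3e to Gas5. Of the 45 pairs, 26 had intervals that did not overlap. Such a count rises with read depth, and no share was computed for pairs of other genes. Each gene overlapped its neighbour in this order. At the top, the intervals of Eef2, Eif3e, Gas5 and Tpt1 overlapped in every pairing. At the bottom, the interval of Pabpc1 overlapped only those of Eef1d and Eef1g. This order and these overlaps are without correction for exon length. After it, Tpt1 (0.316 to 0.456) lay below Eef2 (0.461 to 0.504) and Eif3e (0.458 to 0.667). Pabpc1 (0.068 to 0.140) then also overlapped Eif3f (0.108 to 0.242). Eef1d passed above Eef1g and Eif3f, and Eif3e above Gas5. The pairs were not counted again after the correction. Intervals that do not overlap show a difference beyond counting error between these libraries only.

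Summed over the 10 genes, their share of all counts was 1.24% fed (exact Clopper-Pearson interval 1.231 to 1.248) and 1.61% fasted (1.60 to 1.62). Levels of different genes were compared per kilobase of exon and scaled to 1000000 per library. On that scale Eef2 stood at 4968 and 6689 in the fed and fasted libraries, Eef1a1 at 2892 and 3490.4, Eef1b2 at 1819 and 2303 and Pabpc1 at 1089 and 1081. The lowest were Eef1g at 134 and 148, Eif3e at 107 and 145 and Eef1d at 99.7 and 105. Pabpc1 was the 1 gene of the 10 whose fasted level on this scale was not above its fed level. Eef1b2 stood 13.5-fold above Eef1g when fed and 15.6-fold above it when fasted. Most of the Eef1g sequence also occurs in other genes, as given below, so this fold is uncertain. With the longest transcript in place of all exons, levels of Eef1d, Pabpc1 and Tpt1 moved by more than 1.5-fold, and Eef1d passed above Eef1g, at 179 against 148 in the fed library.

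Copies of these genes in the genome bear on such levels. Annotated near-identical copies, mostly processed pseudogenes, were sought at an identity of at least 95% over at least 200 bases. Eef1a1 had 10 and Eef1g had 4, while Eif3f and Gas5 had none. The reads counted on the copies present in the files were few, from 0.0235% of the gene's own count for Eef2 to 2.16% for Tpt1 in the fed library. Adding them to the gene moved no log2 ratio out of its interval. Windows of 50 bases of the longest coding transcript, or of the longest transcript for Gas5, also occurred in the transcripts of other genes for 64.3% of positions in Eef1g, 57.9% in Eef1a1 and 42.0% in Tpt1, but only 7.86% in Eef2, 5.98% in Eef1b2 and 0% in Eif3f and Gas5. Rps6, with 84.6% of windows shared, had only 29 and 22 counts, and Rack1, with 0.930%, had 18248 and 18977. The sources used here do not say how reads with several matches were treated, so the levels of Eef1g, Eef1a1 and Tpt1 are uncertain. A ratio between the libraries compares the same gene and the same windows in both.

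Exon length moved with the ratios over all genes. In 5 equal bins of length the median log2 ratio of measured genes went from 0.12 in the shortest to -0.12 in the longest bin, and 6 of the 10 members were in the shortest 2 bins. After correction for length with a running median, all 10 ratios stayed above 1, from 0.10 for Pabpc1 to 0.56 for Eif3e, and the median went from 0.40 to 0.29. The interval of Eef1g, 0.12 (-0.04 to 0.28), then included a ratio of 1, and those of the other 9 did not. Length here was that of all exons of a gene. It was 6540 bases for Pabpc1 and 6488 for Eef1d, against longest transcripts of 2916 and 2856. The correction raised the ratios of both genes. Correction by the longest transcript was not made, so the corrected values of these genes depend on the length used.

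Markers of other intestinal cells moved as well. The 14 absorptive enterocyte markers summed to 2038 CPM fed and 3949 CPM fasted, and 9 were called higher. The 9 goblet cell markers summed to 645 and 1258 CPM, with Tff3, Fcgbp and Zg16 called higher. The 9 Paneth cell markers summed to 1153 and 994 CPM, with Mmp7 called higher and none lower. Of these 9 Paneth cell markers, 8 had a ratio below 1, 5 of them with an interval below 1, and the median was -0.33. The 11 stem cell markers summed to 21706 and 14289 CPM and none was called. Of them 10 had a ratio below 1, 9 with an interval below 1, and the median was -0.23. Lgr5 had -0.49 (-0.57 to -0.40) and Olfm4 -0.78 (-0.79 to -0.76). A single marker held 100399 of the 151622 counts of this list in the fed library, so the sums depend mostly on that gene. Enteroendocrine and tuft cell markers summed to 28.6 and 12.5 CPM in the fed library and to 26.9 and 9.36 CPM in the fasted library. Immune markers reached at most 25 counts, those of Cd68 (25 and 6, called lower), and stromal and endothelial markers at most 3 in either library, with Cd3g, Cd79a, Col3a1, Dcn and Des at 0 in both. The part of the cell mixture in the ratios of the 10 genes was not tested, and a different number of cells of a type cannot be told apart from different RNA per cell.

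The ribosomal proteins are the main TOP class. Of 80 measured cytosolic ribosomal protein genes, 76 had a ratio above 1, 57 had an interval above 1 and none was called, with a median of 0.43. The other 4, with a ratio below 1, included Rpl10 at -0.13 (-0.43 to 0.18), and the highest were Rpl17 at 0.79 (0.07 to 1.52) and Rps27a at 0.81 (0.40 to 1.22). Correction for exon length brought the median of the 80 genes to 0.30, with 70 ratios and 49 intervals above 1. The 8 other measured TOP genes without a ribosomal protein product had a median of 0.26, and 6 had a ratio above 1. Their summed counts, most of which were those of Rack1, gave 0.43, so the value depends on how the genes are weighted. Rack1, which sits on the small ribosomal subunit, had 0.55 (0.52 to 0.58), the nascent chain factor gene Btf3 had 0.48 (0.30 to 0.67) and the nucleolar chaperone gene Npm1 had 0.41 (0.32 to 0.49). In the other direction Hnrnpa1, which encodes a splicing regulator, had -0.49 (-0.79 to -0.18) and the histone chaperone gene Nap1l1 had -0.15 (-0.29 to -0.0038).

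Genes of translation outside the TOP class were taken as a comparison. Of 20 cytosolic aminoacyl-tRNA synthetase genes, which charge tRNAs with amino acids, 7 had a ratio above 1 and none was called, with a median of -0.06, or -0.03 after correction for exon length. Their range, from -0.27 for Cars (-0.57 to 0.03) to 0.23 for Farsa (0.03 to 0.43), overlapped that of the 10 genes only at its upper end. Qars had 0.14 (0.05 to 0.24) and Wars -0.22 (-0.36 to -0.07). The difference between the lists has no test, since the libraries are single and the members of a list are not replicates.

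Regulators of TOP translation were described by their messages. Of 19 measured, 10 had a ratio above 1 and none was called, with a median of 0.01, which turned to -0.0114 with total counts as the scale. Larp1 had -0.01 (-0.11 to 0.08) and Mtor 0.03 (-0.15 to 0.22). The genes of the translation repressors Eif4ebp1 and Eif4ebp2 had 0.39 (0.06 to 0.72) and 0.30 (0.17 to 0.43). Cnbp, which encodes a protein that binds TOP sequences, had 0.38 (0.32 to 0.45). The lowest were Eif2ak3, the gene of the stress kinase PERK, at -0.63 (-0.98 to -0.30), and Tia1, another TOP-binding protein, at -0.36 (-0.49 to -0.24). After correction for exon length Larp1 turned to 0.05 (-0.05 to 0.14), and the interval of Eif4ebp1, -0.04 to 0.62, included a ratio of 1. The activity of these proteins was not measured.

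**Figure D5:**
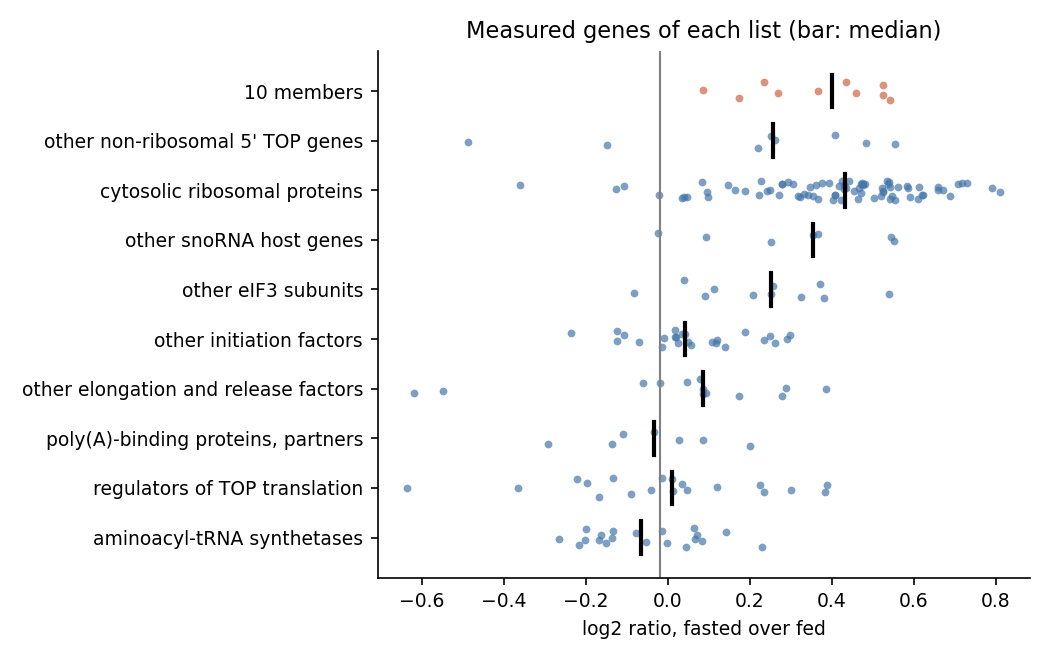
Each point is a measured gene with its log2 ratio of fasted over fed, in rows by list; black bars are medians and the grey line is the median of all measured genes. The 10 members (median 0.40) and the ribosomal proteins (0.43) lie to the right, and the aminoacyl-tRNA synthetases (-0.06) lie around the grey line. Values are drawn without correction for exon length, after which these medians were 0.29, 0.30 and -0.03.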

How the data were processed

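The deposited counts are whole numbers of reads for each Ensembl gene, not normalised by the authors. FastQC, STAR, HTSeq and DESeq and the builds GRCm38 and mm10 are named, without versions, per the submitters' processing notes. The sources used here give neither the annotation nor the strand setting. A second table of deposited signal, normalised counts per the file headers, holds the counts divided by 1.19 (fed) and 0.842 (fasted), which matched 100% of its values within 0.006. The size factors computed here were the same, so ratios from that table equal those used here by construction, with 302 genes called higher and 230 lower.

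Symbols, exon lengths and coordinates came from GENCODE M21 (GRCm38), which matched 45143 of 45706 identifiers. Size factors came from the median of ratios and divided each library's counts. Intervals are exact 95% Clopper-Pearson intervals of the fasted share of a gene's reads and, like the floor of 3 counts, cover counting error only. Measured genes had a mean of at least 1 CPM and at least 20 counts. With 1 library per group no test was made. The procedure was tested on simulated data. Alternatives were scaling by total counts, by the upper quartile and by TMM (edgeR 4.0.16), other filters and thresholds, summed counts, length correction (running median of 501 genes) and, after the data were seen, copies found with blastn 2.17.0. Members and lists were chosen with earlier results of these data known. The rule for named genes took the 10 members, the 2 highest and 2 lowest of each translation list, any called gene of these lists and fixed genes. Of the genes it took, 1 is not reported here, so not every list is shown at both ends. Other genes, such as markers at 0 and further eIF3 subunits, were chosen after their values were seen. Python 3.11.15 and scipy 1.17.1 were used.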

Additional observations from a re-analysis of the deposited data

How the results depend on the processing

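All 10 ratios stayed above 1 with TMM, upper-quartile or total-count scaling, with a lowest value of 0.06 for Pabpc1 under total counts. They also stayed above 1 after correction by the length of all exons, and the longest transcript was not tried for this. The deposited normalised table carries the same size factors, so it is no separate check. Adding near-identical copies could change little, since these held at most 2.25% of a gene's own count. On the per-kilobase scale Pabpc1 stood at 1089 fed and 1081 fasted, so its direction depended on the scale. The median of the 10 genes moved only under length correction, from 0.40 to 0.29. With a threshold of 25% above the fed level 6 genes were called higher, against 0 at 1.5-fold and at 2-fold. The median of the regulators of TOP translation turned from 0.01 to -0.0114 under total counts, and that of the poly(A)-binding list turned from -0.03 to 0.0013 after length correction. Under both alternative filters the medians of all 10 lists kept their sign. The values of the 10 members could not change, since all of them passed either filter. No paired analysis was possible because each group holds 1 library, and for the same reason no replicate could be left out. Genes of few counts, such as Eif3j1, have intervals too wide to place them.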
